A study of Mus musculus with 6 samples.

Results

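Vascular G protein-coupled receptors are described here through H3K9ac, a histone acetylation typical of active promoters and enhancers, at Calcrl, Ramp2, S1pr1, Adgrl4, Adgrf5, Aplnr, Ednrb and Cxcr4. The members are all peaks of the deposited table whose gene symbol is one of these 8 genes, promoter and distal alike. There were 29 such peaks of 17901 in all, and they belonged to 7 of the 8 genes, since Aplnr had none. The mark was profiled by CUT&RUN, in which a nuclease releases the DNA under an antibody-bound protein, in lung endothelial cells isolated from mice. From CSE-KO mice, which were Cre-positive, came 3 libraries, and 3 came from WT mice, which were Cre-negative. CSE is cystathionine gamma-lyase, which makes cysteine from cystathionine. The sources used here do not state what drives the Cre, how old the mice were, or whether each library is a separate animal, so p-values measure the spread between libraries, which may be technical in part.

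These receptors pass signals from blood-borne and tissue ligands to the endothelium. CALCRL needs RAMP2 to bind adrenomedullin, a peptide that keeps vessels tight, while S1PR1 senses sphingosine 1-phosphate and steadies endothelial junctions. RAMP2 is a partner protein of CALCRL and not itself such a receptor, but Ramp2 is counted with the receptor genes here. In the lung, Ednrb marks the large capillary endothelial cells called aerocytes, and Aplnr marks the general capillary cells beside them.

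The libraries held 679938 to 1173016 counts in CSE-KO cells and 313610 to 676056 in WT cells. All 18 endothelial marker genes had a peak. Of 12 leukocyte genes 1 had a peak, Csf1r, while Ptprc, Cd68 and Spi1 were among those without. Of 12 mesenchymal genes 1 had a peak, Col1a1, while Pdgfra, Pdgfrb and Acta2 were among those without. Of 12 epithelial genes 5 had peaks, namely Epcam, Cdh1, Scgb1a1, Krt8 and Krt18, while Sftpc and Nkx2-1 were among those without. The summed endothelial level was 3312 to 3761 CPM (counts divided by TMM-adjusted library totals) in CSE-KO and 3699 to 3804 CPM in WT libraries. The epithelial sum was 296 to 339 CPM in CSE-KO and 327 to 357 CPM in WT. The leukocyte sum was 21.6 to 23.9 CPM in CSE-KO and 16.7 to 39.6 CPM in WT, and the mesenchymal sum was 22.4 to 51.8 CPM in CSE-KO and 33.0 to 46.9 CPM in WT. Each of these ranges overlapped between the groups. Of the 44 endothelial marker peaks with enough counts to test, 18 were higher and 26 lower in CSE-KO. None had an adjusted p under 0.05 by edgeR (0.0868% of all tested peaks did). At an unadjusted p under 0.05 edgeR gave 8 (7.08% of all tested peaks), DESeq2 4 and voom 5. The groups did not overlap at 10 of the 44, against 13.0% of all tested peaks. Peaks of the 8 receptors took 0.136% to 0.145% of the counts in CSE-KO and 0.129% to 0.138% in WT libraries. In such bulk samples, fewer cells that carry the mark and less mark per cell cannot be told apart.

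Promoter sequence was at hand for 5 of the 8 genes, and the windows that lie under an H3K9ac peak are shown because they are the receptor starts the mark covers. Each window runs from 250 bases before to 50 bases after the start (RefSeq, GRCm38.p6), 5′ to 3′ on the gene's strand. Capitals mark any match, on either strand, to letters bound by known factor families. These were CCGGAAG or CAGGAAG for ETS factors, AGATAA for the GATA family, ACAATG for SOX factors, CCACCC for KLF factors, ACGTG for HIF and TGANTCA for AP-1, which reads alike on both strands.
Calcrl, chr2:84425217-84425516, minus strand: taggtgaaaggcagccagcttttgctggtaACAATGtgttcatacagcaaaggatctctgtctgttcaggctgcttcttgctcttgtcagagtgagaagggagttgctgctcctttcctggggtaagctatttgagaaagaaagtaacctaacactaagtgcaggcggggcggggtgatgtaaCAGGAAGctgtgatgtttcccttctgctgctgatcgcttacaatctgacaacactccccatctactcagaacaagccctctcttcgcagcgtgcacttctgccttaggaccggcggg
Adgrl4, chr3:151437632-151437931, plus strand: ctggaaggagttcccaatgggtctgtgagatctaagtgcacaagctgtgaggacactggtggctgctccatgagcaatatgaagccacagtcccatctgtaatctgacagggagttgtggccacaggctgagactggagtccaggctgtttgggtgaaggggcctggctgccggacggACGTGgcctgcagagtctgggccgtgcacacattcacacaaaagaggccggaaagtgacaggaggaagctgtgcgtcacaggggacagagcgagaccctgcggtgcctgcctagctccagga
Adgrf5, chr17:43360181-43360480, plus strand: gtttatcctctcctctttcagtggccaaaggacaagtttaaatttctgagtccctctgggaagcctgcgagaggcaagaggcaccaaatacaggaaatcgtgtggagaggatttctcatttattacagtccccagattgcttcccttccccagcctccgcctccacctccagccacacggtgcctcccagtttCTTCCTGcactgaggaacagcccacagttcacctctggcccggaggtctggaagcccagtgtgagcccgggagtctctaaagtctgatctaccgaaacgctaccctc

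The Calcrl window lay wholly under its peak, Adgrl4 had 282 and Adgrf5 172 of its 300 bases covered. The windows of Cxcr4, of Ednrb and of a later start of Adgrf5 lay under no peak. Of all 32851 promoter windows, 24.5% lay under a peak. The ratio of observed to expected CpG was 0.36 in Calcrl, 0.32 in Adgrl4 and 0.37 in Adgrf5, while its median was 0.81 over the 8061 windows under a peak and 0.27 over the 24790 others. CpG was thus scarcer in these covered receptor windows than in the median covered window. The uncovered window of Cxcr4 had a ratio of 0.77 and that of Ednrb 0.58.

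The ETS letters CAGGAAG stood 67 bases before the Calcrl start and, on the opposite strand, 57 bases before the Adgrf5 start. These letters occur in 13.3% of all windows and in 12.6% of those under a peak. Calcrl also held the SOX letters (12.6% of all windows, 6.57% of those under a peak) and Adgrl4 the HIF letters (19.6% of all, 28.4% under a peak). None of the 3 windows held CCGGAAG (8.86% of all, 22.5% under a peak) or AGATAA (11.2% of all, 5.09% under a peak). They also lacked CCACCC (31.5% of all, 35.3% under a peak) and TGANTCA (7.81% of all, 4.58% under a peak). A match describes these letters and is not a binding site.

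No receptor peak passed the test for a difference between CSE-KO and WT cells. Of the 29 peaks, 24 passed the filter on low counts and none was called (edgeR quasi-likelihood test, two-sided, Benjamini-Hochberg over all 16134 tested peaks, threshold 0.05), where 0.0868% of all tested peaks were called. That background is so low that 0 calls among 24 do not set the receptors apart. At an unadjusted p under 0.05 edgeR gave 0 member peaks (7.08% of all peaks), the Wald test of DESeq2 gave 0 and voom gave 1. Among all 16134 tested peaks, DESeq2 gave 566 and voom 1250 at that threshold. Log2 fold changes of CSE-KO over WT ran from -0.51 to 0.88, with 15 above and 9 below 0 and a median of 0.13, beside -0.00034 over all tested peaks. The groups did not overlap at 1 of the 24 peaks, while they did not overlap at 13.0% of all tested peaks. The 5 peaks that missed the filter were all 4 of Cxcr4 and the Adgrf5 peak at 31.1 kb.

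**Figure D1:**
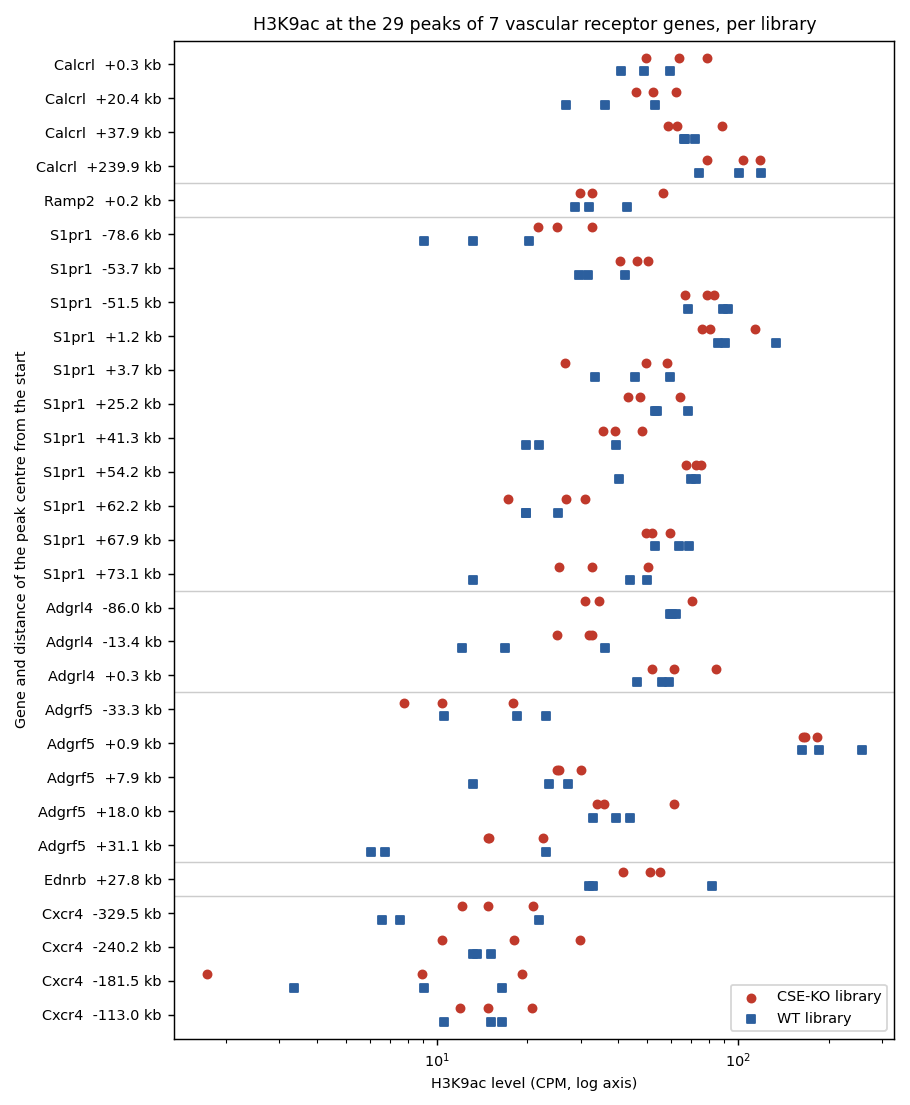
H3K9ac level in CPM (log axis) of each of the 29 peaks in the 3 CSE-KO libraries (red circles) and the 3 WT libraries (blue squares), by gene and distance from the start. The groups overlap at every peak except S1pr1 at -78.6 kb, and the start peak of Adgrf5 is the highest.

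**Figure D2:**
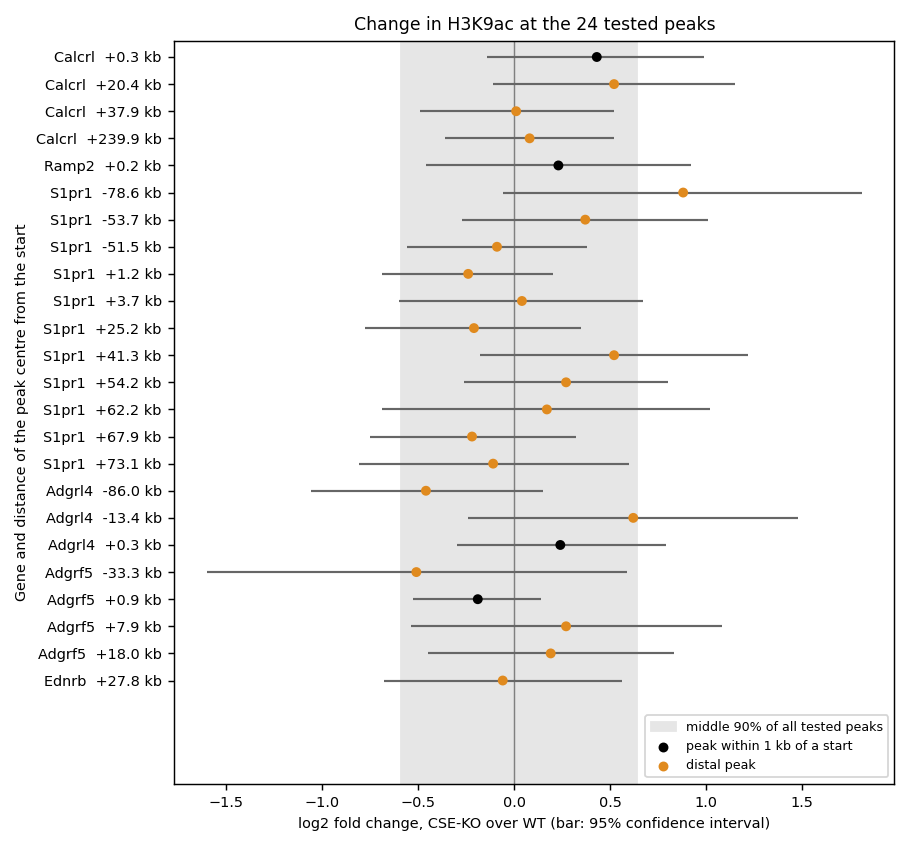
Log2 fold change of CSE-KO over WT with its 95% confidence interval at the 24 tested peaks, black within 1 kb of a start and orange elsewhere, over a grey band from -0.59 to 0.64 that holds the middle 90% of all tested peaks. Every interval includes 0, and S1pr1 at -78.6 kb is the one estimate above the band.

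Calcrl, the receptor that pairs with RAMP2, carried 4 peaks, and their sum was 284, 240 and 330 CPM in CSE-KO replicates 1 to 3, against 215, 292 and 244 CPM in WT replicates 1 to 3. The CSE-KO values lay partly above WT, and the groups overlapped. The summed log2 fold change was 0.21 (SE 0.14, 95% interval -0.06 to 0.49, edgeR adjusted p = 0.80). Without CSE-KO replicate 2 or without WT replicate 2 its unadjusted p passed 0.05 (0.0371 and 0.0385), and the adjusted p stayed at 0.692 or more. Without CSE-KO replicate 3 or without WT replicate 1 the estimate was 0.11 (unadjusted p 0.478 and 0.480).

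The Calcrl start peak covers the printed window and reaches into intron 1 (chr2:84424424-84425542, GRCm38). It had 78.6, 49.3 and 63.6 CPM in CSE-KO, against 40.9, 59.4 and 48.7 CPM in WT libraries. The CSE-KO values were high in replicate 1, and the groups overlapped (log2 fold change 0.43, SE 0.28, adjusted p = 0.79, edgeR). In intron 2, the peak 20.4 kb from the start had 45.8, 52.2 and 62.1 CPM in CSE-KO, against 36.3, 52.8 and 26.9 CPM in WT (log2 fold change 0.52, SE 0.31, adjusted p = 0.77, edgeR). WT replicate 2 lay among the CSE-KO libraries there. A second peak of intron 2, 37.9 kb from the start, averaged 70.0 ± 16.3 CPM in CSE-KO and 68.3 ± 3.45 CPM in WT (SD, n = 3 each). The broadest of the receptor peaks, 2393 bp of intergenic DNA 240 kb downstream, averaged 100 ± 19.8 CPM in CSE-KO and 97.9 ± 22.4 CPM in WT. At that distance the gene name states only the nearest start.

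Ramp2, whose protein carries CALCRL to the cell surface and sets its ligand choice, had a single peak over exon 1 (chr11:101246003-101247138). It had 32.8, 29.9 and 56.2 CPM in CSE-KO, against 28.8, 42.9 and 31.9 CPM in WT libraries. The spread within each group was larger than the gap between them (log2 fold change 0.23, SE 0.35, 95% interval -0.46 to 0.92, adjusted p = 0.93, edgeR). Per kb of peak, Ramp2 was among the low promoters, at percentile 5.39 of all peaks within 1 kb of a start in CSE-KO and 3.45 in WT.

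S1pr1, the sphingosine 1-phosphate receptor, carried 11 peaks, from 78.6 kb upstream to 73.1 kb downstream of its start. Of the 11191 genes with a peak, 12 had 11 or more (0.107%), and the median gene had 1. A pair lay in the gene, in its intron and in the 3′ UTR, 3 lay upstream and 6 downstream, all 9 annotated as intergenic. For these 9 the gene name states only the nearest start, and the peak count and the sums of S1pr1 include them. The 11 peaks summed to 541, 561 and 565 CPM in CSE-KO, against 549, 503 and 563 CPM in WT libraries. The summed log2 fold change, 0.04 with an SE of 0.10 (edgeR adjusted p = 0.98), was the tightest among the receptors, with a 95% interval from 0.894-fold to 1.18-fold.

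The intronic S1pr1 peak, 1.24 kb from the start (chr3:115713400-115714236), had 76.0, 80.6 and 114 CPM in CSE-KO, against 90.8, 85.8 and 134 CPM in WT libraries. Replicate 3 was the highest in both groups, and the groups overlapped (log2 fold change -0.24, SE 0.22, adjusted p = 0.86, edgeR). The S1pr1 peaks differed in density. Per kb, the 3′ UTR peak stood at percentile 99.5 of all peaks farther than 1 kb from a start in CSE-KO and 99.3 in WT. The peak 67.9 kb downstream stood at 99.0 in CSE-KO and 99.2 in WT, and the intronic peak at 98.3 in CSE-KO and 98.8 in WT. The other intergenic S1pr1 peaks stood below these, some still high and some low. The 62.2 kb peak was at percentile 96.8 in CSE-KO and 91.1 in WT, and the 25.2 kb peak at 94.6 in CSE-KO and 96.2 in WT. The -51.5 kb peak was at 89.5 in CSE-KO and 91.4 in WT, and the -53.7 kb peak at 91.1 in CSE-KO and 71.7 in WT. The 54.2 kb peak was at 75.0 in CSE-KO and 59.1 in WT. The peak at -78.6 kb was at percentile 35.5 in CSE-KO and 2.80 in WT, the 73.1 kb peak at 39.0 in CSE-KO and 42.6 in WT, and the 41.3 kb peak at 48.2 in CSE-KO and 15.4 in WT. Intergenic peaks of this locus thus spanned low and high levels.

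The S1pr1 peak farthest upstream, at -78.6 kb (chr3:115793326-115793936), was the one receptor peak at which the groups did not overlap. It had 21.6, 32.8 and 25.1 CPM in CSE-KO, against 9.08, 13.2 and 20.2 CPM in WT libraries. All CSE-KO values were above WT, yet the peak was not called (log2 fold change 0.88, SE 0.46, 95% interval -0.06 to 1.81, adjusted p = 0.74, edgeR). Counts behind it were low, at 25, 22 and 17 in CSE-KO and 6, 4 and 12 in WT. Leaving out WT replicate 1 gave 0.58, and leaving out WT replicate 3 gave 1.29. At the 41.3 kb peak the averages were 40.7 ± 6.34 CPM in CSE-KO and 27.0 ± 10.8 CPM in WT (SD, n = 3 each; log2 fold change 0.52, SE 0.35, adjusted p = 0.80, edgeR). The other 8 S1pr1 peaks had log2 fold changes between -0.22 and 0.37.

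**Figure D3:**
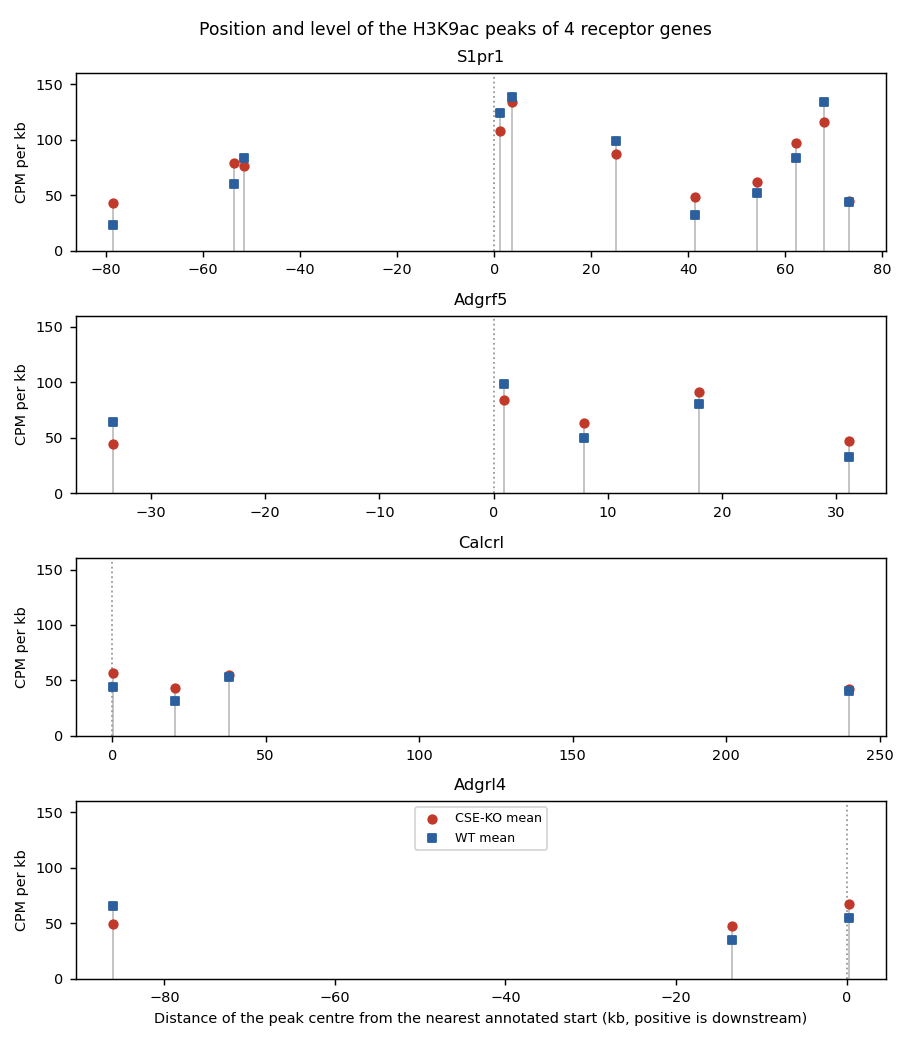
Position of each peak of S1pr1, Adgrf5, Calcrl and Adgrl4 as the distance of its centre from the nearest annotated start (kb, dotted line at 0) against its mean level in CPM per kb, CSE-KO as red circles and WT as blue squares (means of 3 libraries). The Adgrf5 peaks at 18.0 and 31.1 kb are measured from a later start of that gene, and S1pr1 shows peaks above 100 CPM per kb both in its intron and 67.9 kb downstream.

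The adhesion receptors Adgrl4 and Adgrf5 are long proteins with extracellular domains that act in vessel growth and, for Adgrf5, also in lung surfactant balance. The Adgrl4 start peak (chr3:151437650-151438634) had 51.8, 61.2 and 84.3 CPM in CSE-KO, against 56.0, 46.2 and 58.8 CPM in WT libraries. CSE-KO replicate 3 was the highest and the groups overlapped (log2 fold change 0.24, SE 0.27, adjusted p = 0.89, edgeR). The intergenic peak 86.0 kb upstream had 34.6, 70.1 and 31.1 CPM in CSE-KO, against 62.1, 59.4 and 60.5 CPM in WT libraries. WT values lay close together while CSE-KO replicate 2 lay above them all and the other two below (log2 fold change -0.46, SE 0.30, adjusted p = 0.79, edgeR). This was the peak that voom gave at an unadjusted p of 0.0471.

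The remaining Adgrl4 peak, 13.4 kb upstream in a LINE repeat, averaged 30.0 ± 4.22 CPM in CSE-KO and 21.7 ± 12.8 CPM in WT (SD, n = 3 each; log2 fold change 0.62, SE 0.43, adjusted p = 0.80, edgeR). Summed over its 3 peaks, Adgrl4 had 140 ± 22.3 CPM in CSE-KO and 134 ± 5.51 CPM in WT (log2 fold change 0.05, SE 0.18, adjusted p = 0.99, edgeR). Of these counts, the start peak took 47.0% ± 11.7 in CSE-KO and 39.6% ± 6.10 in WT, with no test.

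Adgrf5 had the most abundant receptor peak, 2042 bp over its first start and into intron 1 (chr17:43360309-43362350). It had 167, 164 and 183 CPM in CSE-KO, against 185, 257 and 163 CPM in WT libraries. WT replicate 2, the shallowest library, was the highest, and the other WT libraries lay within or next to the CSE-KO range (log2 fold change -0.19, SE 0.17, 95% interval -0.53 to 0.14, adjusted p = 0.86, edgeR). Per kb it stood at percentile 83.4 of the peaks within 1 kb of a start in CSE-KO and 90.7 in WT. It took 63.3% ± 5.37 of the gene's counts in CSE-KO and 68.8% ± 4.89 in WT, with no test.

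Of the other 4 Adgrf5 peaks, one lay 33.3 kb upstream and 3 lay in introns 1 to 3. The intron 2 peak, 18.0 kb past a later start, had 61.3, 35.8 and 34.0 CPM in CSE-KO, against 39.4, 33.0 and 43.7 CPM in WT libraries. Its excess in CSE-KO rested on replicate 1 (log2 fold change 0.19, SE 0.32, adjusted p = 0.94, edgeR), and without that library the estimate was -0.17. Over all 5 peaks Adgrf5 had 269 ± 16.0 CPM in CSE-KO and 287 ± 50.3 CPM in WT (SD, n = 3 each), and the log2 fold change was -0.05 (edgeR adjusted p = 0.98, with a 95% interval from 0.801-fold to 1.16-fold).

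Per kb of peak, the peaks nearest the starts ordered the genes as S1pr1, Adgrf5, Adgrl4, Calcrl and Ramp2. Their levels were 108 ± 24.7 CPM per kb in CSE-KO and 124 ± 31.9 in WT for S1pr1, 83.9 ± 5.10 in CSE-KO and 98.8 ± 24.2 in WT for Adgrf5, and 66.8 ± 17.0 in CSE-KO and 54.5 ± 6.73 in WT for Adgrl4 (SD, n = 3 each). Calcrl had 57.0 ± 13.1 CPM per kb in CSE-KO and 44.4 ± 8.30 in WT, and Ramp2 34.9 ± 12.7 in CSE-KO and 30.4 ± 6.53 in WT. The range of each gene over the 6 libraries overlapped that of the next in this order. Within every single library, however, Adgrf5 lay above Adgrl4 and Calcrl above Ramp2. S1pr1 and Adgrf5 changed order in WT replicate 2, and Adgrl4 and Calcrl in CSE-KO replicate 1 and WT replicate 2. The order was not tested.

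Ednrb, the endothelin B receptor and an aerocyte marker, had 1 peak, at its far end in the 3′ UTR (chr14:103815446-103816454) and not at its start. It had 51.0, 55.2 and 41.4 CPM in CSE-KO, against 81.8, 33.0 and 31.9 CPM in WT libraries. WT replicate 1 was far above the other two, and the CSE-KO values lay between (log2 fold change -0.06, SE 0.31, adjusted p = 0.99, edgeR). Without WT replicate 1 the estimate was 0.61. No peak was assigned to Aplnr, the apelin receptor, and the nearest one, assigned to Tnks1bp1, lay 74.9 kb away. Of the aerocyte markers, 4 of 8 genes had peaks (Ednrb itself, Apln, Prx and Chst1, but not Car4), with a sum of 272 to 309 CPM in CSE-KO and 284 to 385 CPM in WT. Of the general capillary markers, 4 of 7 had peaks (Gpihbp1, Glp1r, Ptprb and Tek, but not Plvap or Kit), with 333 to 413 CPM in CSE-KO and 327 to 388 CPM in WT. The ranges of both lists overlapped between the groups. Of the 7 tested aerocyte peaks, Ednrb included, 1 lay above and 6 below 0 (median log2 fold change -0.26), with 0 at an unadjusted p under 0.05 (edgeR). The 10 tested general capillary peaks ran from -0.82 to 1.27, with 2 at an unadjusted p under 0.05 (edgeR, 7.08% of all tested peaks). None was called. The groups did not overlap at 1 aerocyte and 3 general capillary peaks, against 13.0% of all tested peaks.

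Cxcr4, the receptor of the chemokine CXCL12 and known from endothelial tip cells, had no peak in or near the gene. Its 4 peaks were intergenic, 113 to 329 kb upstream, and at these distances the name states only the nearest start. None passed the filter on low counts. The one at -181 kb lies in an L1 repeat and the one at -329 kb in a satellite repeat, where reads may map to several places. Their sum was 52.3, 70.7 and 58.6 CPM in CSE-KO, against 40.4, 51.9 and 54.5 CPM in WT libraries. The groups overlapped by one library each (log2 fold change 0.31, SE 0.28, 95% interval 0.839-fold to 1.82-fold, adjusted p = 0.89, edgeR).

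**Figure D4:**
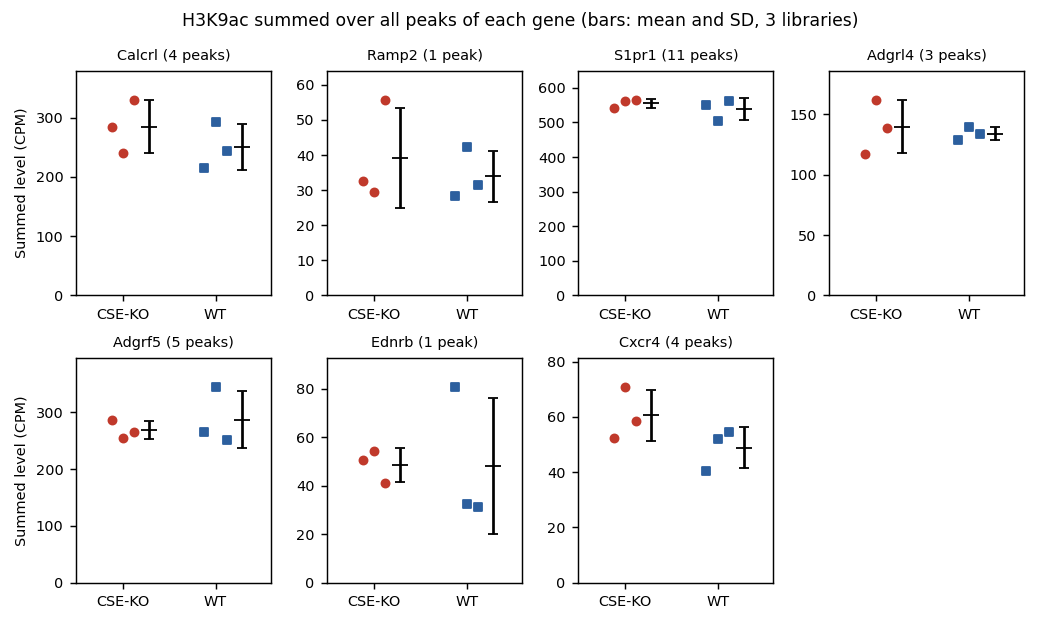
H3K9ac level in CPM summed over all peaks of each of the 7 receptor genes, CSE-KO libraries as red circles left of WT libraries as blue squares, with the mean and SD of 3 libraries as black bars. The groups overlap in every panel, and S1pr1 is the highest, at 556 ± 12.8 CPM in CSE-KO and 538 ± 31.3 CPM in WT.

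On the summed scale, 0 of 7 receptor genes were called (edgeR, adjusted over 10569 genes), where 0.123% of all genes were, and 0 of 7 had an unadjusted p under 0.05 by edgeR (6.86% of all genes), by DESeq2 or by voom. Among all 10569 genes, DESeq2 gave 375 and voom 784 at that unadjusted threshold. The groups overlapped at each of the 7 receptor genes, while they did not at 12.5% of all genes. The 95% intervals exclude a 2-fold change in either direction for all 7 genes, the widest reaching 0.725-fold to 1.92-fold in Ramp2 and 0.627-fold to 1.48-fold in Ednrb. With 1 library left out this limit was passed in 3 genes. The upper bound was 2.56-fold in Ednrb without WT replicate 1, and in Cxcr4 2.08-fold without CSE-KO replicate 1 and 2.12-fold without WT replicate 3. In Ramp2 it was 2.24-fold without CSE-KO replicate 1, 2.20-fold without CSE-KO replicate 2, 2.19-fold without WT replicate 2 and 2.02-fold without WT replicate 3. The intervals cover the spread between these libraries, and a change of the mark shared by all peaks would be removed by the scaling.

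Ligands, enzymes and co-receptors of the 8 genes were listed as partners, 43 genes of which 21 had a peak. Of their 44 tested peaks, 0 rose (0.0248% of all tested peaks did) and 0 fell (0.0620% did) by edgeR. At the partners 5 peaks had an unadjusted p under 0.05 by edgeR (7.08% of all tested peaks did), 3 by DESeq2 and 6 by voom. The groups did not overlap at 14 of the 44, against 13.0% of all tested peaks, and the median log2 fold change was 0.06. In the adrenomedullin branch, Adm, the gene of the ligand of CALCRL and RAMP2, had 219, 169 and 195 CPM in CSE-KO, against 218, 234 and 185 CPM in WT libraries (log2 fold change -0.10, SE 0.16, adjusted p = 0.93, edgeR). The groups overlapped. Crcp, which codes for a component that couples CGRP receptors, had 30.7 ± 2.40 CPM in CSE-KO and 27.8 ± 14.7 CPM in WT.

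Among sphingosine 1-phosphate genes, 0 of 14 tested peaks were called (edgeR; 0.0868% of all tested peaks were), and 2 had an unadjusted p under 0.05 by edgeR (7.08% of all did), 1 by DESeq2 and 3 by voom. The groups did not overlap at 4 of the 14, against 13.0% of all tested peaks. Spns2, the endothelial exporter of the lipid, carried 7 peaks, and its most abundant one had 157, 146 and 115 CPM in CSE-KO, against 188, 185 and 176 CPM in WT libraries. All CSE-KO values were below WT, and the peak was not called (log2 fold change -0.38, SE 0.17, unadjusted p = 0.0298, adjusted p = 0.67, edgeR). Plpp3, a phosphatase that breaks the lipid down outside the cell, averaged 65.8 ± 3.28 CPM in CSE-KO and 77.7 ± 7.43 CPM in WT without overlap (log2 fold change -0.25, SE 0.24, adjusted p = 0.87, edgeR). The kinase Sphk1 had a log2 fold change of 0.25, the lyase Sgpl1 0.04, the phosphatase Sgpp1 0.07, the transporter Mfsd2b 0.36 and the receptor S1pr2 0.15. Each value is that of the gene's most abundant peak. Over all 14 tested peaks the log2 fold change ran from -0.39 to 1.35, with a lowest adjusted p of 0.425 (edgeR).

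Among other adhesion receptors, 0 of 13 tested peaks were called (edgeR; 0.0868% of all tested peaks were), with 1 at an unadjusted p under 0.05 by each of edgeR (7.08% of all), DESeq2 and voom. It was the same peak each time, at Adgra2, a receptor of brain vessel growth through Wnt ligands, with 97.6, 112 and 146 CPM in CSE-KO, against 150, 205 and 171 CPM in WT libraries. The groups did not overlap (log2 fold change -0.55, SE 0.18, unadjusted p = 0.00405, adjusted p = 0.47, edgeR). Adgrl3, a relative of Adgrl4, averaged 106 ± 8.77 CPM in CSE-KO and 133 ± 21.7 CPM in WT (log2 fold change -0.30, adjusted p = 0.78, edgeR). Adgrl2 had a log2 fold change of -0.51, Adgrg1 0.19 and Adgre5 0.61, with SE from 0.20 to 0.52. Over all 13 tested peaks the log2 fold change ran from -0.64 to 0.61. The groups did not overlap at 4 of the 13, against 13.0% of all tested peaks.

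Among endothelin genes, 0 of 10 tested peaks were called by edgeR, where 0.0868% of all tested peaks were. At an unadjusted p under 0.05 edgeR gave 2 (7.08% of all tested peaks), DESeq2 1 and voom 2. The groups did not overlap at 6 of the 10, against 13.0% of all tested peaks. Edn1, the gene of endothelin 1, had 168, 187 and 172 CPM in CSE-KO, against 160, 125 and 139 CPM in WT libraries at its most abundant peak. All CSE-KO values were above WT (log2 fold change 0.28, SE 0.17, adjusted p = 0.77, edgeR). Ece1, the enzyme that trims the endothelin precursor, had 7 peaks, and the most abundant had 83.4 ± 6.94 CPM in CSE-KO and 103 ± 4.40 CPM in WT without overlap (log2 fold change -0.30, SE 0.21, adjusted p = 0.81, edgeR). Ednra, the other endothelin receptor, had a log2 fold change of 0.02. None of these peaks, each the most abundant of its gene, had an unadjusted p under 0.05 (edgeR). Over all 10 tested endothelin peaks the log2 fold change ran from -0.40 to 0.98, with a lowest adjusted p of 0.637 (edgeR). Apln, the ligand of APLNR and itself an aerocyte marker, averaged 34.9 ± 6.12 CPM in CSE-KO and 31.1 ± 16.4 CPM in WT (log2 fold change 0.26, adjusted p = 0.93, edgeR). Mif, an alternative ligand of CXCR4, had 60.2 ± 15.4 CPM in CSE-KO and 61.0 ± 15.9 CPM in WT, while Cxcl12 and Ackr3 had no peak.

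Among G proteins and their regulators, 0 of 45 tested peaks of 24 genes were called (edgeR; 0.0868% of all tested peaks were), 6 had an unadjusted p under 0.05 by edgeR (7.08% of all did), 3 by DESeq2 and 5 by voom, and the median log2 fold change was -0.0029. Another list took 37 further receptors as vascular, without a check of where they are expressed, and 19 of them had a peak. Of their 29 tested peaks, 0 rose (0.0248% of all tested peaks did) and 1 fell (0.0620% did). It was the intron 1 peak of Gprc5a, an orphan receptor induced by retinoic acid, at 80.3, 76.1 and 76.9 CPM in CSE-KO, against 154, 102 and 176 CPM in WT libraries (log2 fold change -0.93, SE 0.20, adjusted p = 0.042, edgeR). The groups did not overlap. The call was lost without CSE-KO replicate 1 (adjusted p = 0.282), CSE-KO replicate 2 (0.211), CSE-KO replicate 3 (0.259), WT replicate 1 (0.199) or WT replicate 3 (0.488), with library size alone (0.0509) and with the Wald test of DESeq2 (0.213). Under these settings the log2 fold change was between -0.96 and -0.78. This list was chosen with earlier results of these data known. The 1 call among its 29 tested peaks is therefore no evidence about such receptors as a set.

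Across the 6 libraries, the promoter peaks whose log2 CPM moved most like the Adgrf5 start peak included those of Smad1 (Pearson r 0.999) and Cbx3 (0.993), of 7780 compared. In both of them WT replicate 2 was the highest library, as at Adgrf5. With 6 points that share library depth and scaling, this describes the pattern only.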

How the data were processed

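Per the submitters' processing notes, the tools were featureCounts, DESeq2 1.36.0, Picard 3.1.1, STAR 2.7.11a and Trimmomatic 0.39. Their order, how peaks were called and what became of multi-mapping reads are not stated in the labels. The authors deposited 1 table with 1 row per peak and a raw count for each library. The deposited table also holds RPKM values, used only to imply library totals for an alternative scaling; the rows hold 92.0% to 94.4% of those totals. Another 6 per-library columns of normalized values were not used. The notes name mm39, but the starts implied by the peaks lie a median of 5 bp from gene ends on GRCm38, so coordinates are read as GRCm38.

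Counts were fitted with edgeR 4.0.16 under R 4.3.3. Low counts were removed by filterByExpr (minimum 10) and libraries were scaled by TMM, followed by the quasi-likelihood F test with group as the sole term, two-sided, Benjamini-Hochberg over all tested peaks, threshold 0.05. SEs and 95% intervals come from the F statistic. The same fit was run on counts summed over all peaks of each gene. The scripts were tested on simulated data. Libraries of a group differed by more than sampling noise (chi-square over its degrees of freedom, 1.91 to 2.14) and were kept as 3 replicates. Alternatives were RLE factors, library size alone, implied totals, no filter, a filter at a mean count of 50, DESeq2 1.42.0, voom (limma 3.58.1), a replicate block and each library left out. Named genes are all member peaks, partner genes with a tested peak by their most abundant one, called peaks of the other lists, and the 3 promoter peaks most like the most abundant member peak, of which 1 is not reported here. The members and lists were chosen with earlier results of these data known.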

Additional observations from a re-analysis of the deposited data

How the results depend on the processing

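No receptor peak and no receptor gene was called under any alternative run. The lowest adjusted p over the alternatives was 0.599 for peaks and 0.692 for summed genes. Of 316 comparisons of single receptor peaks with an alternative, 298 kept the direction, and of 95 for summed genes 88 did. The cause of the turns was not tested. With voom the estimate turned to -0.04 at Calcrl 37.9 kb and to 0.03 at Ednrb (0.04 summed), and with the replicate block to -0.03 at S1pr1 3.67 kb. With 1 library left out in turn, the estimate ran from -0.17 to 0.34 at Adgrf5 18.0 kb, -0.10 to 0.22 at Calcrl 240 kb, -0.18 to 0.14 at Calcrl 37.9 kb, -0.35 to 0.61 at Ednrb (-0.33 to 0.62 summed) and -0.09 to 0.38 at Ramp2 (-0.07 to 0.38 summed). At S1pr1 it ran from -0.39 to 0.18 at 73.1 kb, -0.02 to 0.41 at 62.2 kb, -0.23 to 0.28 at 3.67 kb and -0.0025 to 0.07 summed. The summed range was -0.07 to 0.18 for Adgrl4 and -0.14 to 0.06 for Adgrf5.

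Over the whole table, the 14 called peaks became 8 with a mean count of 50 or more, 7 with DESeq2, and 6 to 13 with 1 library left out. The 13 called genes on summed peaks became 8 with a mean count of 50 or more, 5 with DESeq2, and 5 to 9 with 1 library left out. Libraries with the same label number showed little shared deviation (r 0.064, 0.013 and 0.008 for numbers 1 to 3). Libraries with unlike numbers gave r from -0.033 to 0.018. The numbers thus gave no clear sign of pairing, but so few libraries could hide a weak shared effect. The replicate block gave 15 peaks and 17 genes and called no receptor. At low counts, as at Cxcr4, changes of the size of the fitted intervals were not detectable at this depth.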
